A study of Ovis aries with 2 samples.

Results

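KDR, TEK, TIE1, CDH5, PECAM1, EMCN, PLVAP, EGFL7, CD93 and KLF2 are 10 genes of the 26478 features counted in single cells of day 16 sheep embryos. They were taken as a set of endothelial receptors, junction proteins and other vessel genes, and each symbol belongs to 1 feature. The study set short-tailed Hulunbuir sheep against long-tailed Ujumqin sheep, the control breed, to follow cell populations of the early embryo. Embryos of each breed were pooled, treated to lyse red blood cells and read as 1 library of 3′ counts, so breed, pool and library cannot be told apart in any comparison between them. The Ujumqin library kept 14554 cells with a median of 9519 UMIs, and the Hulunbuir library kept 9583 cells with a median of 11879 UMIs. A level (CPM) is the gene's summed count divided by all UMIs of the cell group, times 1000000, and intervals cover counting error only. UMI counts are not scaled by transcript length and differ in capture between genes, so levels are compared between cells and libraries, not between genes.

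KDR is the main receptor for VEGF-A and marks both mesodermal precursors and formed endothelium. TEK is the receptor for angiopoietins and TIE1 is its partner without a known high-affinity ligand of its own. CDH5 is the cadherin of endothelial adherens junctions, and PECAM1 is an adhesion molecule of the same cell borders that blood cells also carry. EMCN is a sialomucin of venous and capillary endothelium, PLVAP builds the diaphragms of fenestrae and caveolae, EGFL7 is secreted by endothelium, CD93 is a lectin-like receptor that binds MMRN2, and KLF2 is a transcription factor raised by shear stress.

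Endothelium-like cells were found without the 10 genes, which took no part in clustering or naming. They formed 1 cluster of 167 cells in Ujumqin (1.15% of kept cells, 0.981 to 1.33) and 1 cluster of 495 cells in Hulunbuir (5.17%, 4.73 to 5.63). Shallow RASIP1 clusters of 338 and 209 cells, described below, are not counted here. With its own the Ujumqin number was 505, and the Hulunbuir number would rise by its 209 cells. The 505 is therefore not to be set against 495. Mitochondrial UMIs were at 5% or more in 48 of the 167 and 250 of the 495 cells (medians 4.22% and 5.02%), and under a 5% limit no Hulunbuir cluster was endothelium-like, so every Hulunbuir value of these cells and every fold in them rests on the 10% limit. The marker RASIP1 was at 200.2 CPM in the Ujumqin cluster and 2.31 CPM in the other cells, and at 189.3 and 2.82 CPM in Hulunbuir. Other endothelial markers were thin in these libraries: CLDN5 had 3 and 7 UMIs, SOX7 1 and 9 UMIs, and ERG 1.64 and 3.63 CPM in the endothelium-like cells of Ujumqin and Hulunbuir. An erythroid-like group of 5020 cells was present in Ujumqin and in Hulunbuir no cluster took that name, so levels elsewhere leave the erythroid-like cells out. The libraries shared 61 barcodes, 50 of them kept in both, and 3 of those were endothelium-like in at least 1 library.

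**Figure D1:**
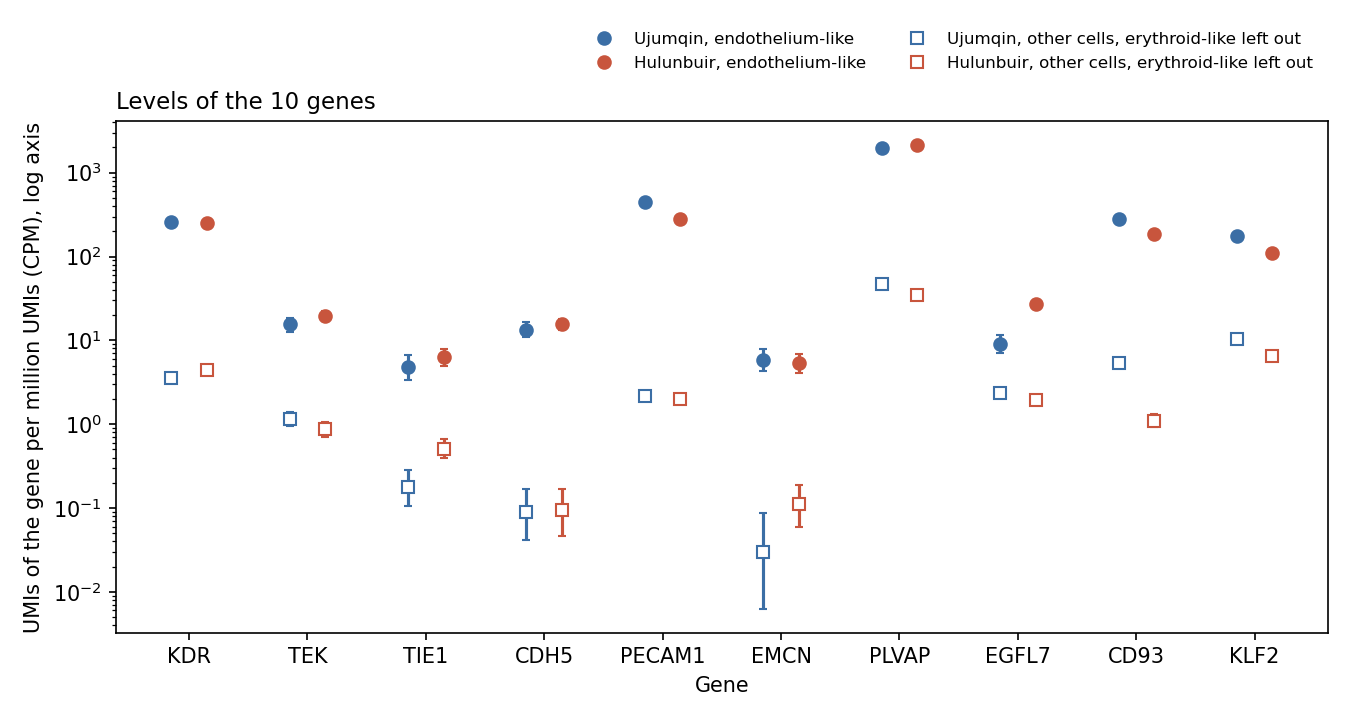
Level of each of the 10 genes in endothelium-like cells (filled circles) and in the other cells with erythroid-like cells left out (open squares), in each library. Bars are exact Poisson 95% intervals on the counts.

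The set as a whole was concentrated in the endothelium-like cells. These held 75.4% (74.9 to 75.8) of the 30900 UMIs of the 10 genes in Ujumqin and 84.8% (84.4 to 85.1) of 40569 in Hulunbuir. Defining the cells by 3 endothelium genes per cell instead gave 28.7% and 22.4%. Summed over the 10 genes the level was 3188.2 CPM in the endothelium-like cluster of Ujumqin and 3043.6 CPM in that of Hulunbuir. PLVAP alone gave 61.9% and 70.3% of those UMIs, so sums over the set follow PLVAP most. Outside the endothelium-like clusters each library had a shallow cluster with RASIP1 among its leading genes, left unnamed because RASIP1 was its 1 endothelium marker. It held 338 cells with a median of 1114.5 UMIs in Ujumqin and 209 cells with a median of 1385 UMIs in Hulunbuir. The 10 genes summed to 1114.6 and 1144.4 CPM in these shallow clusters.

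KDR was at 260.8 CPM (249.3 to 272.8) in Ujumqin endothelium-like cells and 250.7 CPM (241.6 to 260.2) in those of Hulunbuir, against 3.60 and 4.40 CPM in the other cells. The endothelium-like cells held 80.1% and 84.6% of its UMIs. Its next clusters in Ujumqin were an unnamed cluster with CLEC1B, GP1BB and TREML1 among its leading genes (38.4 CPM, 31.6 to 46.1) and the shallow RASIP1 cluster (29.9 CPM), whose intervals overlap. A small mesenchyme-like cluster of 91 cells followed at 22.8 CPM. In Hulunbuir the shallow RASIP1 cluster came next at 67.1 CPM, and a cardiomyocyte-like cluster of 28 cells had 43.9 CPM from 11 UMIs (21.9 to 78.6). An unnamed cluster there had 13.8 CPM (8.63 to 20.8) and a neural tube-like cluster 11.8 CPM (7.93 to 16.8). The allantois and lateral plate-like cluster followed at 9.10 CPM, with an interval that overlaps that of the neural tube-like cluster. KDR was therefore strongest in endothelium-like cells of both breeds, with a lower level in clusters of several kinds.

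TEK was at 15.5 CPM (12.8 to 18.6) in endothelium-like cells of Ujumqin and 19.4 CPM (16.9 to 22.1) in those of Hulunbuir. Elsewhere it was at 1.16 and 0.869 CPM, and because the other cells are many, endothelium-like cells held 48.9% of TEK UMIs in Ujumqin and 68.2% in Hulunbuir. The 91-cell mesenchyme-like cluster of Ujumqin had 6.91 CPM of TEK, the next highest level there. TIE1 was sparse, with 35 UMIs (4.79 CPM, 3.34 to 6.67) and 71 UMIs (6.28 CPM, 4.91 to 7.93) in endothelium-like cells and 0.180 and 0.511 CPM elsewhere. Endothelium-like cells held 66.0% of TIE1 UMIs in Ujumqin and 54.2% in Hulunbuir. The CLEC1B cluster of Ujumqin had 7 TIE1 UMIs at 2.38 CPM (0.956 to 4.90), which overlaps the endothelium-like interval. In Hulunbuir the shallow RASIP1 cluster came next, with TEK at 9.87 CPM (3.20 to 23.0) and TIE1 at 3.95 CPM (0.478 to 14.3), each overlapping too. Both genes thus had their highest cluster value in endothelium-like cells, but apart from TEK in Ujumqin that rank is not separated by counting error from the next cluster. The TEK interval in Ujumqin also overlaps those of lower clusters with few UMIs. These were the cardiomyocyte-like cluster (1 UMI, 0.166 to 36.6 CPM) and the shallow RASIP1 cluster (2 UMIs, 0.483 to 14.4 CPM).

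CDH5, the junction cadherin, had most of its UMIs in endothelium-like cells. It had 98 UMIs (13.4 CPM, 10.9 to 16.4) in Ujumqin endothelium-like cells and 176 UMIs (15.6 CPM, 13.4 to 18.1) in those of Hulunbuir, against 0.0900 and 0.0937 CPM in the other cells. Endothelium-like cells held 91.6% and 94.1% of its UMIs. The shallow RASIP1 clusters came second for CDH5, each from 3 UMIs. They had 5.98 CPM (1.23 to 17.5) in Ujumqin and 5.92 CPM (1.22 to 17.3) in Hulunbuir, each overlapping the endothelium-like interval. PECAM1 was at 450.5 CPM (435.2 to 466.2) and 282.3 CPM (272.5 to 292.2) in endothelium-like cells and at 2.15 and 1.98 CPM elsewhere. Its share of UMIs in endothelium-like cells was 93.2% in each library. After them PECAM1 was highest in the shallow RASIP1 clusters, at 155.5 CPM in Ujumqin and 128.2 CPM in Hulunbuir, and at 19.0 CPM in the CLEC1B cluster. Both junction genes thus had over 90% of their UMIs in endothelium-like cells of each library.

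EMCN was low, with 43 UMIs (5.89 CPM, 4.26 to 7.93) and 60 UMIs (5.31 CPM, 4.05 to 6.84) in endothelium-like cells. It had 3 UMIs in the other Ujumqin cells and was at 0.111 CPM in the other Hulunbuir cells. Of the latter the neural tube-like cluster had 6 UMIs at 2.35 CPM (0.863 to 5.12), which overlaps the endothelium-like interval. In Hulunbuir its highest cluster value was in the shallow RASIP1 cluster (5.92 CPM from 3 UMIs), which overlaps the endothelium-like interval. PLVAP was at 1974.9 CPM (1942.8 to 2007.4) in Ujumqin and 2138.7 CPM (2111.8 to 2165.8) in Hulunbuir endothelium-like cells. The shallow RASIP1 clusters came second for PLVAP in both libraries, at 703.9 and 745.8 CPM. It also had a level in clusters of other kinds, with 47.1 and 35.2 CPM over the other cells and 144.8 CPM in a mesenchyme-like Ujumqin cluster that held 9.44% of its UMIs.

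EGFL7 behaved unlike the other 9 genes in Ujumqin. Endothelium-like cells there had 9.04 CPM (6.99 to 11.5) and held 20.6% (16.3 to 25.5) of its UMIs, while a mesenchyme-like cluster at 3.47 CPM held 39.1%. In Hulunbuir endothelium-like cells EGFL7 was at 27.2 CPM (24.2 to 30.4), with 57.4% (53.1 to 61.6) of its UMIs. The shallow RASIP1 clusters had the highest cluster value of EGFL7, 14.0 CPM from 7 UMIs (5.61 to 28.8) in Ujumqin and 31.6 CPM from 16 UMIs in Hulunbuir, each overlapping the endothelium-like value. EGFL7 was thus the gene with the weakest hold on endothelium-like cells in Ujumqin.

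CD93 was at 277.4 CPM (265.5 to 289.8) and 186.9 CPM (179.0 to 195.1) in endothelium-like cells, which held 78.3% of its UMIs in Ujumqin and 94.2% in Hulunbuir. The difference in share came with the CLEC1B cluster of Ujumqin, which had 109.4 CPM of CD93 and 12.4% of its UMIs, and Hulunbuir had no cluster with those leading genes. A macrophage-like Ujumqin cluster had 26.6 CPM of CD93. KLF2 was at 176.0 CPM (166.5 to 185.8) and 111.3 CPM (105.2 to 117.6) in endothelium-like cells, and at 10.4 and 6.49 CPM elsewhere. The shallow RASIP1 clusters came second again, at 103.7 and 75.0 CPM. Endothelium-like cells held 54.9% and 62.3% of KLF2 UMIs, the rest being spread over mesenchyme-like and other clusters. In Hulunbuir 2 mesenchyme-like clusters held 16.7% and 14.5% of them.

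**Figure D2:**
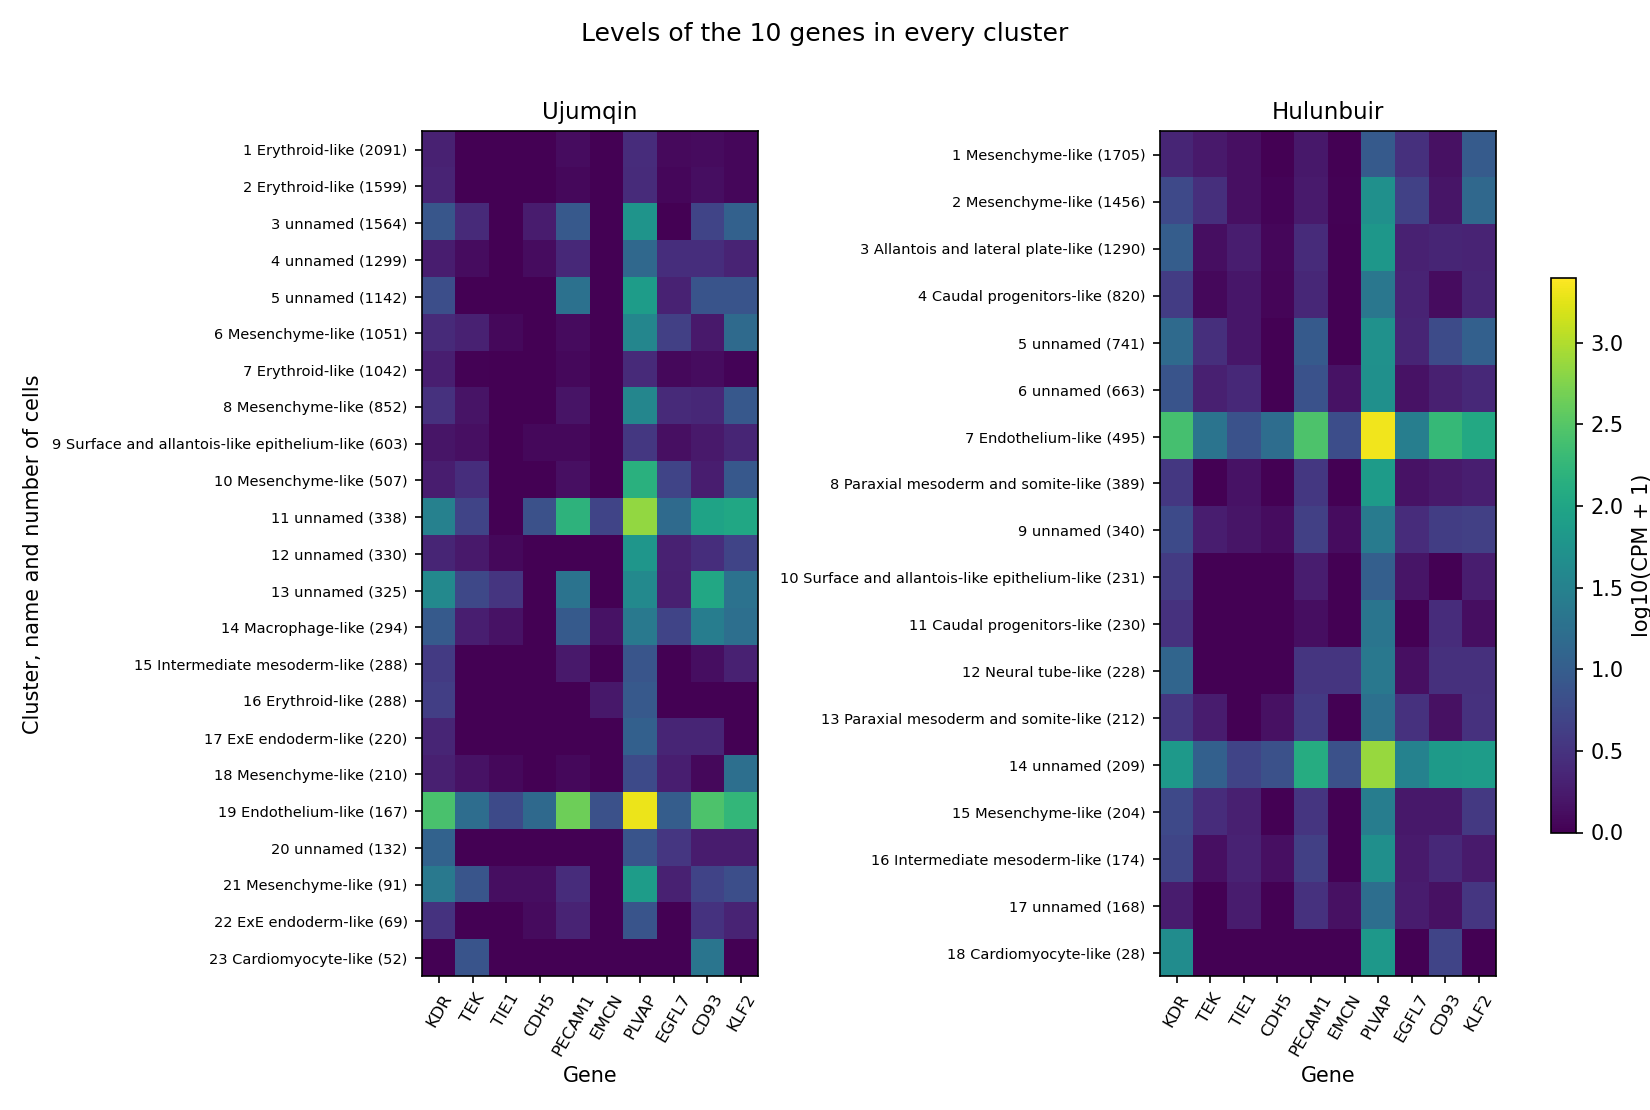
Level of the 10 genes, as log10 of CPM plus 1, in each of the 23 Ujumqin clusters and 18 Hulunbuir clusters.

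The CLEC1B cluster of 325 Ujumqin cells had counts of 8 of the 10 genes. It had KDR and CD93 as given above, PLVAP at 39.4 CPM, KLF2 at 18.0 CPM, TEK at 4.42 CPM and TIE1 at 2.38 CPM, and 0 UMIs of CDH5 and EMCN (at most 1.02 CPM each by 3 counts). Endothelium-like cells of this library had 0.0514 CDH5 UMIs per KDR UMI, and the CLEC1B cluster had 0 beside 113 UMIs of KDR. PLVAP UMIs per KDR UMI were 1.03 in this cluster, against 7.57 in endothelium-like and 1.57 in erythroid-like cells of the library, so its KDR counts did not come with PLVAP in the proportion seen in endothelium-like cells. RNA carried over between droplets as the source of these counts was not tested.

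Detection in single cells depended on depth, so shares were also taken after thinning cells to 1000 UMIs. Cells under 1000 UMIs, 3345 of 14554 in Ujumqin and 516 of 9583 in Hulunbuir, were left out of thinned shares, which for the other cells rest on 6129 of 9367 and 8572 of 9088. No endothelium-like cell was left out. A cell with 0 UMIs of a gene is not a cell without the transcript. KDR was seen in 94.0% of Ujumqin and 88.9% of Hulunbuir endothelium-like cells, and in 19.2% and 17.8% after thinning. In the erythroid-like cells of Ujumqin (median 20473.5 UMIs, against 28355 in endothelium-like cells) KDR was seen in 2.17%, and in 0.0204% after thinning. In Hulunbuir the lowest class for KDR was somite-like cells with 2.50% (median 10408 UMIs, against 18478 in endothelium-like cells), and 0.335% after thinning. For each gene the Hulunbuir class is one with its lowest level (CPM), so it gives a floor and not a test, and other classes had more, such as KDR in 9.65% of neural tube-like cells.

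CDH5 was seen in 37.7% and 25.5% of endothelium-like cells unthinned, and in 2.99% and 1.41% after thinning. No erythroid-like cell had CDH5, which by 3 counts allows up to 0.0611% of them at 1000 UMIs (exact 95% limit 0.0751%). In Hulunbuir 0 of 231 surface epithelium-like cells (median 11166 UMIs) had it, which by 3 counts allows up to 1.32% after thinning and 0.864 CPM without it, against 15.6 CPM in endothelium-like cells. PECAM1 was seen in 95.8% and 80.4% of endothelium-like cells (42.5% and 21.2% thinned), PLVAP in 99.4% in each library (85.6% and 81.4%), and CD93 in 96.4% and 83.4% (32.9% and 15.6%). The same background classes gave PLVAP in 3.11% of erythroid-like cells (0.305% thinned) and 8.66% of surface epithelium-like cells (1.32% thinned). PECAM1 was seen in 0.458% and CD93 in 0.578% of erythroid-like cells, each in 0.0204% after thinning. In Hulunbuir the lowest class for PECAM1 by level was mesenchyme-like cells (0.768 CPM), with 1.31% of cells (median 18227 UMIs, 0 thinned, which by 3 counts allows up to 0.0893%). The 231 surface epithelium-like cells had 3 PECAM1 UMIs, and 0 of them had CD93. These 3 genes and KDR were the ones seen in at least 80% of endothelium-like cells of both libraries.

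KLF2 was seen in 83.8% and 69.5% of endothelium-like cells, TEK in 44.3% and 29.7%, and EGFL7 in 28.1% and 40.2%. EMCN was seen in 21.6% and 11.1%, and TIE1 in 19.2% and 12.3%. Thinned shares were 14.97% and 8.89% for KLF2, 2.40% and 2.42% for TEK, 1.80% and 3.03% for EGFL7, 1.20% and 1.01% for EMCN, and 2.40% and 1.01% for TIE1. In the erythroid-like background KLF2 was seen in 0.259%, EGFL7 in 0.359%, TEK in 0.0398% and EMCN in 0.0199% of cells, TIE1 in 0, and each in 0 after thinning. In Hulunbuir 0 thinned cells of the lowest classes had these genes, which by 3 counts allows up to 1.73% for KLF2 (174 intermediate mesoderm-like cells, median 15023 UMIs), 1.32% for TEK and TIE1 and 1.33% for EGFL7 (228 neural tube-like cells, median 9584 UMIs), and 0.233% for EMCN (1290 allantois and lateral plate-like cells, median 9871.5 UMIs). Without thinning the 231 surface epithelium-like cells had 0 UMIs of TIE1, at most 0.864 CPM by 3 counts, against 6.28 CPM in endothelium-like cells. EGFL7 was the 1 gene of the 10 with a larger unthinned share in Hulunbuir, where endothelium-like cells were shallower. After thinning TEK, TIE1, CDH5, EMCN and EGFL7 were each seen in under 5% of endothelium-like cells, so a missing UMI of these genes says little about a cell.

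An endothelium-like cell had a median of 6 of the 10 genes in Ujumqin and 5 in Hulunbuir, and 97.0% and 96.0% of these cells had at least 3. All 10 were seen together in 3 Hulunbuir cells, and the highest number in Ujumqin was 9. After thinning, 27.5% (20.9 to 35.0) of Ujumqin and 12.5% (9.74 to 15.8) of Hulunbuir endothelium-like cells had at least 3, against 0.180% and 0.0700% of the other cells. Over 20 thinnings, added after the data were seen, the mean was 26.6% (range 22.8 to 32.3) and 17.2% (14.8 to 19.6), so the single Hulunbuir draw was a low one. Co-detection of several members thus marked endothelium-like cells at equal depth in both libraries. It was more frequent in Ujumqin in these draws. With no cell filter the share was 35.8% in Ujumqin and 23.6% in Hulunbuir. Thinned to 500 UMIs it was 10.2% and 4.24%, and thinned to 2000 UMIs 58.1% and 40.0%. The Ujumqin share fell to 15.4% with the shallow RASIP1 cluster counted as endothelium-like. That of Hulunbuir rose to 20.3% with the highest doublet scores removed. These last values come from different settings and are not set against each other. Breed, pool and library cannot be told apart, so the order is of libraries and no order of the breeds is drawn.

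**Figure D3:**
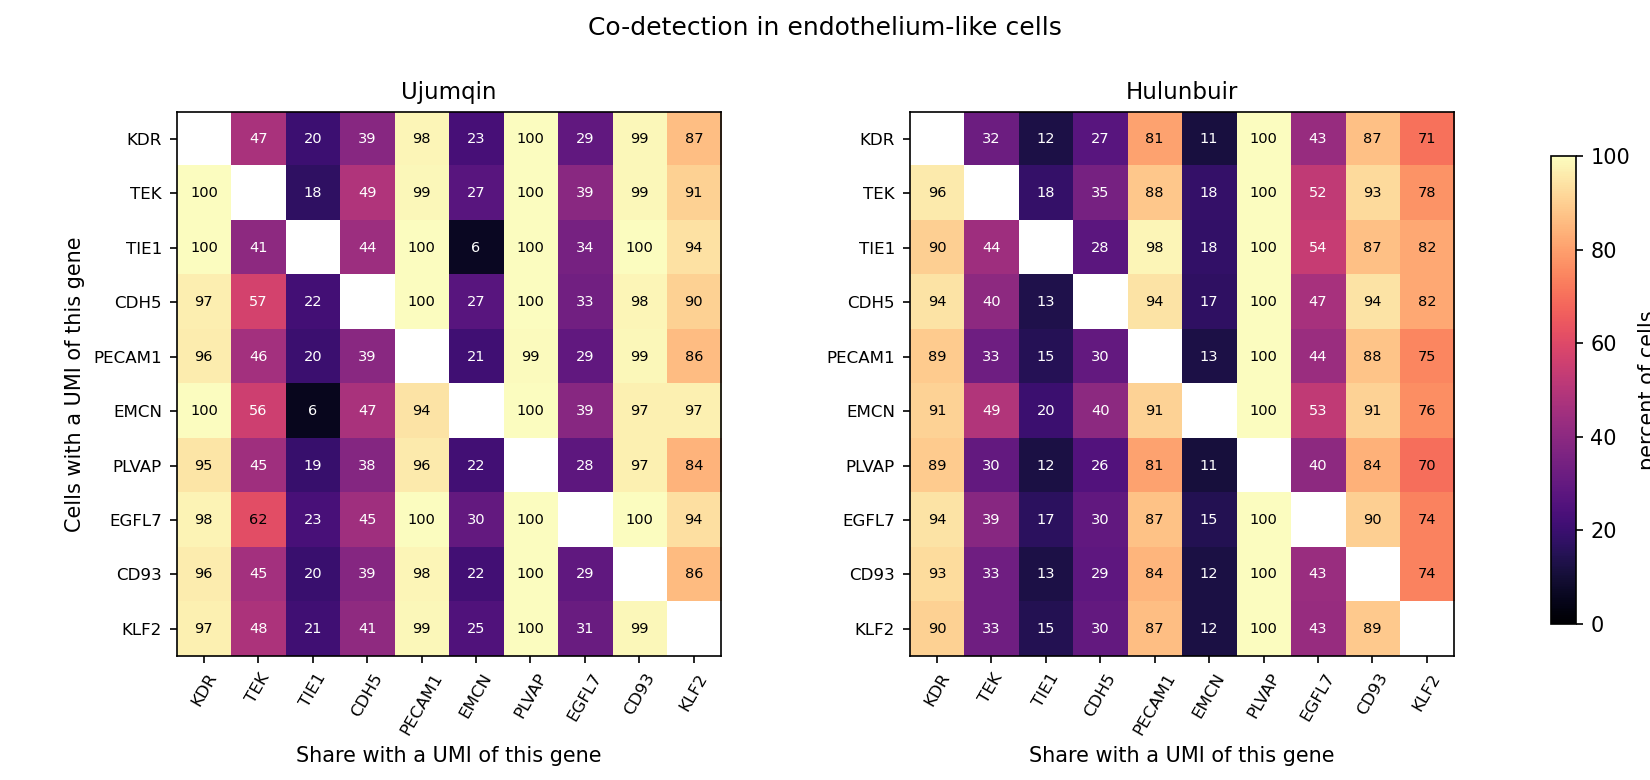
Percent of endothelium-like cells with the gene of the row that also had the gene of the column, in each library, without thinning.

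Within the endothelium-like clusters most KDR cells carried PLVAP, PECAM1 and CD93. KDR cells had PLVAP in 100% of Ujumqin and 99.8% of Hulunbuir cases, PECAM1 in 98.1% and 80.7%, and CD93 in 98.7% and 87.1%. In Hulunbuir 78.2% of endothelium-like cells without KDR had PECAM1, so KDR made little difference to it there. CDH5 cells had KDR in 96.8% and 94.4% of cases. For the angiopoietin receptors, TEK cells had CDH5 in 48.7% and 34.7% of cases, against 29.0% and 21.6% of cells without TEK. TIE1 cells had TEK in 44.3% (31.6 to 57.6) of Hulunbuir cases, against 27.7% of cells without TIE1. In Ujumqin 13 of 32 TIE1 cells had TEK (40.6%, 23.7 to 59.4), an interval that holds the 45.2% of cells without TIE1, so no direction is shown there. These unthinned pairs rise with cell depth, since a deep cell shows more of every gene.

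At equal depth, outside erythroid-like cells, KDR cells had PLVAP in 54.8% of Ujumqin and 63.7% of Hulunbuir cases, against 6.55% and 7.21% of cells without KDR. PECAM1 was seen in 27.4% and 17.0% of KDR cells, against 1.62% and 1.21% of the rest. Inside the endothelium-like clusters the thinned pairing of KDR with PECAM1 was small, 46.9% against 41.5% in Ujumqin and 22.7% against 20.9% in Hulunbuir, with overlapping intervals. For KDR with PLVAP it was 90.6% against 84.4% and 84.1% against 80.8%, again with little difference. For these 2 pairs the equal-depth pairing was therefore mostly between endothelium-like cells and other cells.

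Cells with KDR but without CDH5 were the larger part of KDR cells. Outside erythroid-like cells they were 355 of 419 in Ujumqin (84.7%, 80.9 to 88.0) and 705 of 826 in Hulunbuir (85.4%, 82.8 to 87.7). In endothelium-like cells they were 96 of 157 (61.1%, 53.1 to 68.8) and 321 of 440 (73.0%, 68.6 to 77.1), and elsewhere 259 of 262 and 384 of 386. Cells with both genes were thus almost confined to the endothelium-like clusters, with 61 of 64 in Ujumqin and 119 of 121 in Hulunbuir. After thinning, 62 of 62 and 133 of 135 KDR cells had no CDH5, so at equal depth the pair cannot be used to divide KDR cells.

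**Figure D4:**
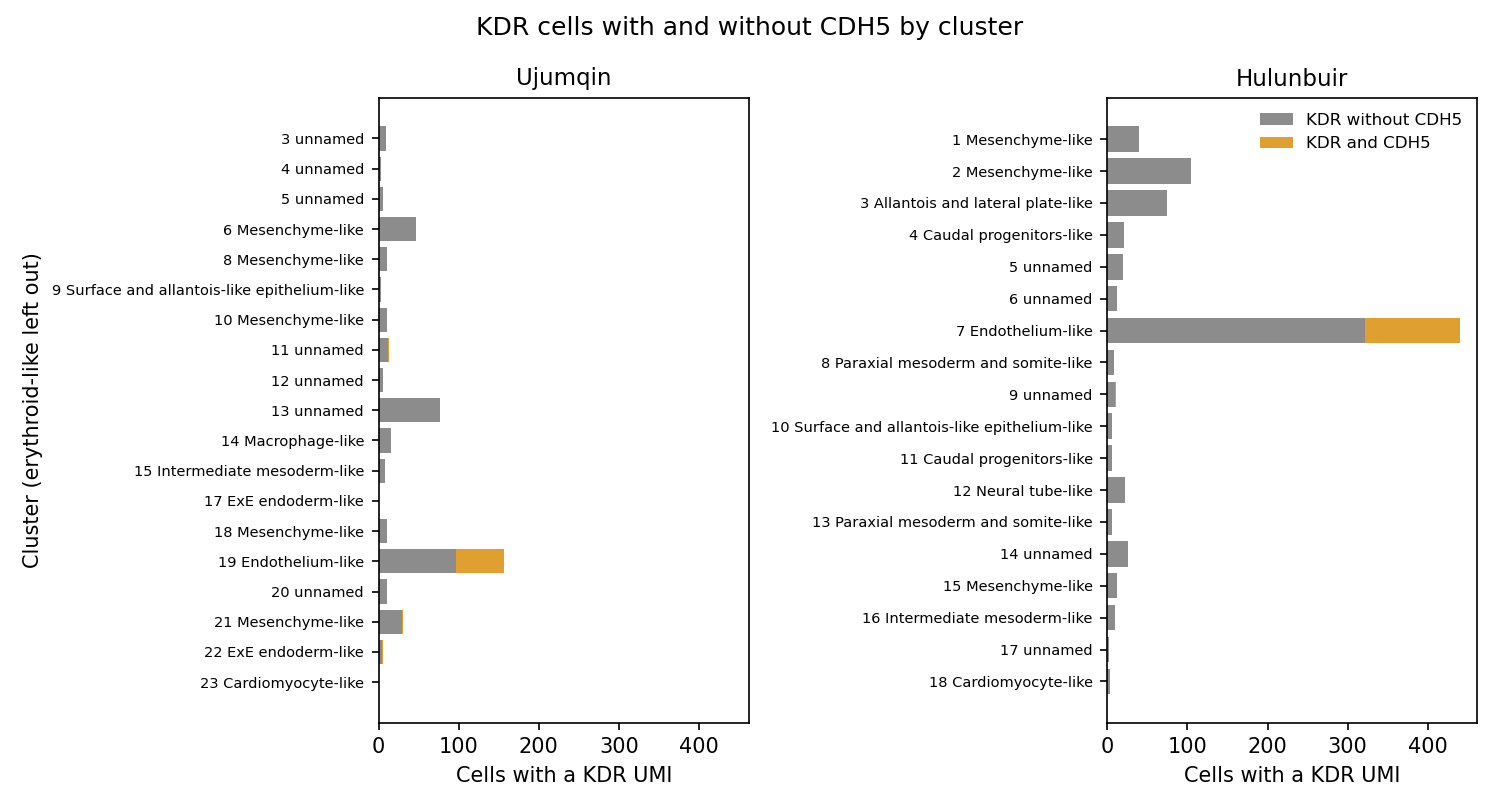
Number of KDR cells without CDH5 (grey) and with CDH5 (orange) in each cluster of each library, erythroid-like cells left out.

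KDR+ CDH5- cells lay in several kinds of cluster. Of those in Ujumqin 27.0% were endothelium-like, 21.7% were the 77 cells of the CLEC1B cluster, and 13.2% were 47 cells of a mesenchyme-like cluster. In Hulunbuir 45.5% were endothelium-like, 14.9% were 105 cells of a mesenchyme-like cluster and 10.5% were 74 cells of the allantois and lateral plate-like cluster. In the 91-cell mesenchyme-like cluster of Ujumqin 29 cells (31.9%) were KDR+ CDH5-, and 1 had both genes. Shares of cells rise with depth, so KDR levels are given beside them. The Ujumqin mesenchyme-like cluster with 47 such cells (4.47% of it) had KDR at 1.55 CPM (1.17 to 2.02), against 1.10 CPM (0.910 to 1.33) in erythroid-like cells, with overlapping intervals. The largest Hulunbuir mesenchyme-like cluster had 40 such cells of 1705 (2.35%) and 1.24 CPM, and the one with 105 (7.21%) had 4.62 CPM (3.84 to 5.52). The somite-like class, chosen as the lowest for KDR, had 2.52 CPM (1.47 to 4.03). The largest Hulunbuir cluster was not above it. The interval of the cluster with 105 such cells overlaps it, but no ratio of these levels was taken, and overlap alone does not decide whether that cluster was higher. KDR was well above these mesenchyme-like and background values in the CLEC1B cluster, where 23.7% of cells were KDR+ CDH5-, and in the 91-cell cluster. In Hulunbuir the neural tube-like cluster (11.8 CPM, 7.93 to 16.8) was also above the somite-like class. So was the allantois and lateral plate-like cluster, at its KDR level given earlier. The shallow RASIP1 clusters gave 12 such cells in Ujumqin and 26 in Hulunbuir. A further 109 erythroid-like cells had KDR, none with CDH5.

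Across clusters KDR cells without CDH5 were shallower than those with it. Median UMIs were 21739 in KDR cells without and 29715 in those with CDH5 in Ujumqin, and 16454 and 25861 in Hulunbuir. Inside the endothelium-like clusters they were 29595.5 and 29756 in Ujumqin, hardly different, and 18200.0 and 25861 in Hulunbuir. Among Hulunbuir endothelium-like KDR cells the shallower cells (median 12903.5 UMIs) had CDH5 in 19.1% (14.1 to 24.9) of cases and the deeper ones (29987.5) in 35.0% (28.7 to 41.7), at similar CDH5 levels of 16.9 and 15.5 CPM. In Ujumqin the shares were 39.2% and 38.5%, with CDH5 at 30.7 CPM (22.2 to 41.6) in the shallower cells (18322) and 9.20 CPM (6.91 to 12.01) in the deeper ones (61468.5). Deeper Ujumqin endothelium-like cells thus had less CDH5 per UMI. Of the endothelium-like KDR cells 10 in Ujumqin and 77 in Hulunbuir were among the highest doublet scores, and the depth split was not taken again without them.

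Outside erythroid-like clusters most of the other 8 genes were lower in KDR+ CDH5- cells than in KDR+ CDH5+ cells. PECAM1 was at 157.9 against 481.2 CPM in Ujumqin (log2 -1.61) and 128.8 against 376.9 CPM in Hulunbuir (-1.55). PLVAP was at 686.9 against 2146.9 CPM (-1.64) and 1083.2 against 2490.0 CPM (-1.20). All 8 were at least 2-fold lower in Ujumqin and 6 of 8 in Hulunbuir, where TIE1 (-0.36, -1.13 to 0.46, no fall shown) and EGFL7 (-0.56) were the exceptions. With at least 2 KDR UMIs per cell these counts went to 2 in Ujumqin and 0 in Hulunbuir, while 2.28% and 1.15% of all genes were lower. Within the endothelium-like clusters alone 0 of 8 were at least 2-fold lower in either library, with PECAM1 at -0.28 and -0.69 and PLVAP at -0.33 and -0.35. TIE1 (0.42, -0.40 to 1.30) and EGFL7 (0.24, -0.12 to 0.61) of Hulunbuir turned to the higher side, with intervals that hold 0. Few genes of any kind were lower within these clusters, 97 of 5310 and 61 of 6724, so 0 of 8 is not particular to the set. The fall of the set in KDR+ CDH5- cells was thus seen mainly across clusters.

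Among all genes tested in that contrast, 10.2% of 7515 were at least 2-fold higher and 4.99% at least 2-fold lower without CDH5 in Ujumqin, and 9.04% and 3.27% of 8143 in Hulunbuir. The genes with the largest change in both libraries describe the clusters these cells lay in, and cells with a single KDR UMI near the background share are among them. Of the 20 genes named here 13 were chosen again under 5% mitochondrial UMIs, 12 with the highest doublet scores removed and 11 with at least 2 KDR UMIs. DCN was at 1129 CPM in KDR cells without and 42.7 CPM in those with CDH5 in Ujumqin (log2 4.73, but -0.16 within endothelium-like clusters alone), and at 161.3 and 7.95 CPM in Hulunbuir (4.34). KRT8 (5.26 and 4.20), BMP4 (4.37 and 4.14), FREM1 (3.95 and 4.49), PDLIM3 (3.91 and 3.92), REG4 (3.87 and 3.98), NELL2 (4.79 and 3.84), ANGPT1 (3.67 and 4.18), MYRF (3.69 and 3.66) and KRT19 (5.43 and 3.63) were the other 9 of the 10 genes highest by the smaller of the 2 changes. In the cells with CDH5 FREM1 and ANGPT1 had 1 UMI in each library and NELL2 had 1 UMI in Ujumqin, so their intervals are wide (ANGPT1 1.65 to 9.51 in Hulunbuir and NELL2 2.28 to 10.10 in Ujumqin). On the lower side stood DEPP1 (-2.05 and -2.05), DOC2B (-2.07 and -1.91), ESM1 (-2.39 and -1.89), CLEC3B (-1.94 and -1.82), BATF3 (-2.01 and -1.70), MECOM (-1.93 and -1.66), GALNT18 (-1.65 and -1.67), GJA5 (-3.13 and -1.65), STAB1 (-1.99 and -1.64) and PDGFD (-1.60 and -1.52). ESM1, CLEC3B and GJA5 are endothelial genes, while DCN and BMP4 belong to mesenchyme and mesoderm.

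Marker lists of many cell types were higher in KDR+ CDH5- cells. Of the mesenchyme list 9 of 9 genes tested were higher without CDH5 in Ujumqin (median log2 2.87) and 9 of 10 in Hulunbuir (3.63), against a median of all genes of 0.09 and 0.02. Of a list of mesoderm progenitor and lateral plate genes 10 of 12 (1.38) and 10 of 14 (1.88) were higher. The rise was not particular to mesoderm. Surface epithelium genes were higher in 4 of 4 (4.72) and 5 of 5 (3.63), and cardiomyocyte genes in 4 of 6 and 9 of 10, beside 10.2% and 9.04% of all genes. Erythroid genes were higher in 7 of 10 in Ujumqin, and in Hulunbuir in 1 of 5, near the share of all genes. In Hulunbuir 4 of 4 neural tube genes and 4 of 5 caudal progenitor genes were higher too. The endothelium list went the other way, with FLI1 and RASIP1 of 3 genes tested lower in Ujumqin (MMRN1 was higher) and ERG, FLI1, RASIP1 and SHE, 4 of 4, lower in Hulunbuir. So did the extraembryonic endoderm list in Ujumqin, with 7 of 11 genes lower and 1 higher (median -1.23), while in Hulunbuir 1 of 4 was lower and 2 higher. A deep extraembryonic endoderm-like Ujumqin cluster (median 51100 UMIs) held 1 of the 64 cells with CDH5 and 4 of the 355 without. What part that 1 cell had in the Ujumqin result was not tested. CLEC1B, GP1BB and TREML1, the 3 megakaryocyte genes tested, were all higher in Ujumqin. ETV2, a factor of endothelial precursors that acts upstream of KDR, went in opposite directions, higher in KDR+ CDH5- cells of Hulunbuir at 95.2 against 31.0 CPM (log2 1.62) and lower in those of Ujumqin at 21.5 against 35.3 CPM (-0.72, -1.05 to -0.37).

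**Figure D5:**
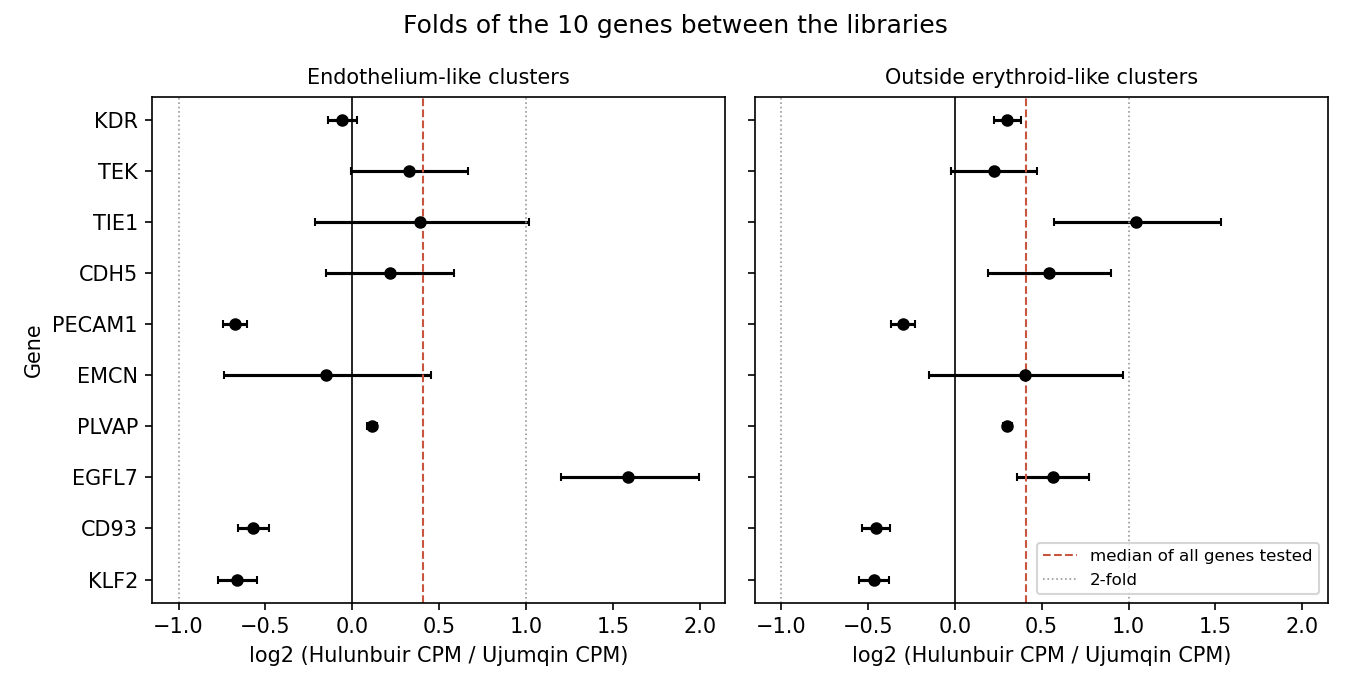
Log2 of Hulunbuir over Ujumqin for the 10 genes, outside erythroid-like clusters and in endothelium-like clusters, with exact 95% intervals. The dashed line is the median of all genes tested and the dotted lines mark 2-fold.

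Between the libraries EGFL7 changed most in endothelium-like cells, 3.01-fold (2.30 to 3.99) higher in Hulunbuir (log2 1.59, 1.20 to 2.00). It was the 1 gene of the 10 that passed 2-fold there, where 20.4% of 7746 genes were at least 2-fold higher and 3.61% at least 2-fold lower in Hulunbuir. PECAM1 had log2 -0.67 (-0.75 to -0.60), CD93 -0.57 and KLF2 -0.66, lower in Hulunbuir but by under 2-fold. KDR was level at -0.06 (-0.14 to 0.03), and PLVAP was at 0.11 (0.09 to 0.14). TEK (0.33), TIE1 (0.39), CDH5 (0.22) and EMCN (-0.15) rest on fewer counts. The median gene of these cells was at 0.41, so relative to it KDR stood at -0.46, PECAM1 at -1.08, CD93 at -0.98, KLF2 at -1.07 and EGFL7 at 1.18.

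Over all cells outside erythroid-like clusters TIE1 was the 1 gene past 2-fold, with 53 UMIs in Ujumqin and 131 in Hulunbuir (2.06-fold higher, 1.49 to 2.89), while 19.4% of 12593 genes were at least 2-fold higher and 5.82% at least 2-fold lower. The lower end of its interval is under 2-fold, and the call was lost with at least 500 genes per cell, under 5% mitochondrial UMIs, the highest doublet scores removed or joint clustering. With the mean of the cells' CPM 4 of the 10 genes passed 2-fold, and so did 32.3% of all genes. The other genes were between -0.47 (KLF2) and 0.56 (EGFL7), with KDR at 0.30 and CDH5 at 0.54. Endothelium-like cells were 1.75% of these cells in Ujumqin and 5.17% in Hulunbuir. The set went from 284.5 to 315.3 CPM, with 72.4 and 52.7 CPM in the cells that were not endothelium-like. Median depth was 28355 UMIs in Ujumqin endothelium-like cells and 1822 outside erythroid-like clusters, and 18478 and 11879 in Hulunbuir, so sums weigh cells differently in the libraries.

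Ligands and partners of the receptors were read in the same cells. VEGFA was at 2.60 CPM in Ujumqin and 8.94 CPM in Hulunbuir endothelium-like cells (log2 1.78) and at 10.1 and 32.1 CPM over all cells outside erythroid-like clusters. In the VEGF list of 6 genes tested in endothelium-like cells VEGFA and VEGFC were at least 2-fold higher in Hulunbuir and 0 were lower, beside 20.4% and 3.61% of all genes, a small list for such a comparison. The receptor FLT1 was at 60.5 and 55.9 CPM, against 3.05 and 2.24 CPM elsewhere. NRP1 was less confined, at 74.4 and 82.1 CPM in endothelium-like cells against 27.0 and 21.7 CPM elsewhere. Its highest Ujumqin value was in the intermediate mesoderm-like cluster (81.8 CPM). ANGPT1, the ligand of TEK, had 3 UMIs in the endothelium-like cells of each library, against 2.37 and 5.16 CPM elsewhere, and its highest cluster was the Hulunbuir cardiomyocyte-like one at 243.5 CPM. ANGPT2, which endothelium makes, was at 4.25 and 6.28 CPM in these cells, and ANGPT4 had 0 UMIs. In Ujumqin ANGPT1 was highest in the 91-cell mesenchyme-like cluster (17.6 CPM), which had TEK at 6.91 CPM and KDR at 22.8 CPM. The Hulunbuir cardiomyocyte-like cluster had KDR at 43.9 CPM from 11 UMIs. ANGPT1 and VEGFA thus had their highest levels in other clusters than the receptors TEK and KDR. The clusters highest for ANGPT1 were not without KDR, however. The genes given with levels in this paragraph were chosen after the values were seen.

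Genes that act on or with the set moved in several directions between the libraries. Of 16 endothelial transcription factors tested in endothelium-like cells ETV2, ERG, SOX18, TAL1 and LMO2 were at least 2-fold higher in Hulunbuir and 0 were lower, beside 20.4% higher and 3.61% lower among all genes. ETV2 was at 33.4 and 85.0 CPM (log2 1.35, 1.14 to 1.56), against 18.6 and 22.0 CPM in the other cells. Its highest cluster value was in the shallow RASIP1 cluster of each library, at 41.9 and 193.4 CPM. Of 15 junction genes CDH11 was higher and ENG lower, with a list median of 0.20 beside 0.41 for all genes. Of 9 arterial genes DLL4 was higher and BMX lower, and of 4 venous and lymphatic genes STAB1 (110.4 and 38.7 CPM) and STAB2 (287 and 9 UMIs) were lower. Of 6 haematopoietic genes TAL1 and LMO2 were higher and GATA1 lower, and of 10 mesoderm progenitor and lateral plate genes 7 were higher (median 1.39). Among 5 binding partners FN1 was higher, while MMRN2, the ligand of CD93, and IGFBP7 were lower. These lists are short, and no count of theirs was tested against the share of all genes called.

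RNA of other cell types in the endothelium-like cells was summed from marker lists. Erythroid genes gave 281.1 CPM in Ujumqin (14 of 16 seen, BLVRB highest at 125.8 CPM, HBB and EPOR at 0) and 138.6 CPM in Hulunbuir (8 of 16 seen, UROD highest at 82.1 CPM). Megakaryocyte genes gave 30.8 and 1.42 CPM, macrophage genes 57.0 and 13.6 CPM, and cardiomyocyte genes 32.5 and 45.6 CPM. Mesenchyme genes gave 321.5 and 141.7 CPM, against 4979.9 and 1879.2 CPM in the other cells. There erythroid genes gave 544.5 and 148.8 CPM, megakaryocyte genes 123.4 and 0.145 CPM, macrophage genes 43.7 and 11.9 CPM, and cardiomyocyte genes 145.4 and 176.4 CPM. Macrophage genes in both libraries and megakaryocyte genes in Hulunbuir were thus higher in endothelium-like cells than in the other cells. What part such RNA has in the values of the 10 genes, PECAM1 and CD93 of blood cells among them, was not tested.

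Across the 41 clusters of both libraries the mean profile of the 10 genes was closest to NOS3 among 9473 other genes (Pearson r of log levels 0.935). PDGFD (0.917), STAB1 (0.911), TMEM204 (0.909), ABI3 (0.908), RASIP1 (0.904), CLEC1A (0.900), IGF1 (0.898), DNASE1L3 (0.896), AFAP1L1 (0.895), OIT3 (0.895), THSD1 (0.890), FLI1 (0.885), BCL6B (0.883) and EHD4 (0.881) followed, the 15 highest in all. NOS3 was at 162.8 and 117.5 CPM in endothelium-like cells and 0.570 and 0.827 CPM elsewhere. Against the mean of the other 9 genes PECAM1 correlated most (0.926) and TIE1 least (0.768), with CDH5 at 0.889 and KDR at 0.836. Clusters of a library share its pool and depth and are not independent, so these r describe likeness and carry no error.

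The limits follow from the design. The design text gives 3 per group, but the files hold 1 library per breed and do not say which cell came from which embryo. With 1 pooled library per breed no difference between breeds has a replicate, and cell counts do not replace embryos. Endothelium-like is a name from RNA markers, and spatial position, protein and lineage were not measured. CDH5, TIE1 and EMCN had under 200 UMIs each in the endothelium-like cells of each library, which sets how far KDR+ CDH5- cells can be read as a population.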

How the data were processed

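Gene counts of single cells were measured by 10x 3′ v3 sequencing in 1 library of pooled day 16 embryos per breed, Ujumqin and Hulunbuir. The deposited matrices hold UMI counts, which the authors made with Cell Ranger against the Rambouillet v1.0 reference; the sequences were not used here. The matrix headers and the methods name Cell Ranger 5.0.0 and the submitters' notes name 3.1.0.

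A barcode was kept as a cell when it had 200 genes or more and less than 10% of its UMIs from mitochondrial genes, 85.3% of 17059 barcodes in Ujumqin and 89.5% of 10709 in Hulunbuir, with 209576780 and 128654663 UMIs. Each library was clustered alone on 2000 variable genes without the 10 genes studied, with 30 principal components, 20 neighbours and Leiden resolution 1. A cluster took the name of the marker list with most markers in it (in 10% of cells, 3-fold over the median of other clusters, 10% of the highest cluster). At least 3 markers were needed, with 1 among the 10 leading genes, and clusters where lists tied for most stayed unnamed. The CLEC1B cluster stayed unnamed because its 4 erythroid markers, the most of any list, were not among its leading genes. This rule was set after the clusters were seen. The 10 genes and the lists were chosen with earlier results of these data known.

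Levels are summed UMIs per 1000000 with exact Poisson 95% intervals, shares have exact binomial intervals and ratios exact conditional intervals. Genes needed 20 UMIs to be tested and were called at 2-fold, and a side with 0 counts took 3. No test between breeds was made because each has 1 library. Named genes in KDR cells are the 10 in each direction with the largest smaller change of the 2 libraries. Likeness is Pearson r over clusters of at least 20 cells. Alternatives changed the cell filter, doublet removal, resolution, genes used in clustering, joint clustering, the definition of endothelium-like cells, the level, the fold, the UMI minimum and the thinning depth. The steps were tested on simulated data. Clusters came from leidenalg 0.10.2 on igraph 0.11.9, with neighbours from scikit-learn 1.9.0 and doublet scores from scanpy 1.11.5. Principal components and intervals used scipy 1.17.1, tables pandas 2.3.3 and arrays numpy 2.4.6, under Python 3.11.15, and figures were drawn with matplotlib 3.10.9.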

Additional observations from a re-analysis of the deposited data

How the results depend on the processing

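Alternatives gave 4758 values, of which 4142 were labelled as the same, 615 as moved and 1 as reversed. The reversed one was DCN in Ujumqin KDR cells without CDH5, from 4.73 to -0.16 within endothelium-like cells alone. In that alternative EGFL7 (-0.56 to 0.24) and TIE1 (-0.36 to 0.42) of Hulunbuir also changed sign without that label. No paired analysis was possible because each breed has 1 library. Chosen after the data were seen were the shallow RASIP1 clusters counted as endothelium-like, barcodes of both libraries left out, KDR cells within endothelium-like clusters alone and the mean of 20 thinnings.

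Of the 10 genes, 1 was at least 2-fold higher in Hulunbuir outside erythroid-like cells; this became 0 with at least 500 genes, under 5% mitochondrial UMIs, Scrublet, joint clustering or a 4-fold limit, and 4 with the mean of the cells' CPM. None was lower there, and 2 were lower when cells needed under 5% mitochondrial UMIs. Averaging CPM over cells also took all genes called higher from 19.4% to 32.3% and raised the median log2 of all genes tested there from 0.41 to 0.65. In endothelium-like cells EGFL7 (1) was no longer called at 4-fold (0), and the 0 lower became 1 with the mean of the cells' CPM and 2 at 1.5-fold. Under 5% mitochondrial UMIs Hulunbuir had no endothelium-like cluster.

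Counting the shallow RASIP1 clusters as endothelium-like gave 505 such cells in Ujumqin and added 209 in Hulunbuir. Without these clusters endothelium-like cells were 167 and 495, but 41 and 71 when defined by 3 endothelium genes per cell. Their share of member UMIs in Ujumqin (75.4%) became 76.9% with 500 genes, 74.7% with no filter, 71.8% under 5% mitochondrial UMIs, 76.7% with Scrublet, 74.8% with the lists left out of clustering, 74.5% with joint clustering, 28.7% with 3 genes per cell and 77.2% with the shallow cluster. In Hulunbuir (84.8%) it became 85.4% with no filter, 85.7% with Scrublet, 22.4% with 3 genes per cell and 86.2% with the shallow cluster.

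Thinned cells with at least 3 members in Ujumqin (27.5%) became 35.8% with no filter, 10.2% at 500 UMIs, 58.1% at 2000 UMIs and 15.4% with the shallow cluster. In Hulunbuir (12.5%) they became 16.7% with 500 genes, 23.6% with no filter, 20.3% with Scrublet, 21.1% with 3 genes per cell, 4.24% at 500 UMIs, 40.0% at 2000 UMIs, 19.5% without shared barcodes and 17.2% as the mean of 20 thinnings. The main value lies under the range of those 20 (14.8 to 19.6).

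KDR cells without CDH5 in Ujumqin (84.7%) became 68.4% with at least 2 KDR UMIs and 61.1% within endothelium-like cells. In Hulunbuir (85.4%) they became 90.7% under 5% mitochondrial UMIs, 74.6% with at least 2 KDR UMIs and 73.0% within endothelium-like cells. The other genes at least 2-fold lower in them, 8 in Ujumqin, became 2 with at least 2 KDR UMIs, 1 at 4-fold and 0 within endothelium-like cells, and 6 in Hulunbuir became 0 in each of these. The cause of these changes was not tested.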
